A study of Homo sapiens with 24 samples.

Results

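Fibrillar collagens are the collagen chains that assemble into the banded fibrils of connective tissue. The family was taken as 10 genes, COL1A1, COL1A2, COL2A1, COL3A1, COL5A1, COL5A2, COL5A3, COL11A1, COL11A2 and COL27A1, and a probe was assigned to a gene when the transcript named in the scanner files was a RefSeq transcript of that gene. This gave 13 of the 50683 probes, for 10 of the 20503 genes that could be given a symbol, and 8 of the 10 were among the 24641 genes tested. Gene expression was measured in HepaRG, a human hepatocellular carcinoma line with the properties of liver progenitors, on 24 one-colour arrays, 3 for each of 8 conditions. Cells were left untransfected, were electroporated in suspension with 80 pmol of control siRNA or of siRNA against β-catenin, or were left untransfected and given 300 ng/ml of mouse recombinant FZD8_CRD, a soluble form of the part of the receptor Frizzled-8 that binds Wnt proteins. Each of these 4 settings was cultured for 72 h in serum-free medium without Wnt3a or with 200 ng/ml of mouse recombinant Wnt3a. Untransfected and FZD8_CRD-treated cells were not electroporated, so the control siRNA groups differ from the untransfected groups in both the pulse and the siRNA.

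Fibrillar collagen chains are made as procollagens, hydroxylated and wound into a helix in the endoplasmic reticulum, secreted, trimmed by proteases and cross-linked into fibrils. Type I and type III collagen form the bulk of the scar in a fibrotic liver, and type V collagen lies inside type I fibrils and controls how they start and how wide they become. The collagen-producing cells of the injured liver are mainly myofibroblasts, and Wnt3a acts on many cell types by stabilising β-catenin, which then works with TCF/LEF factors at target genes.

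Signals are given as log2 of the spot intensity relative to the 75th percentile of the same array, and spots too dim to be measured were given a lowest value, the floor, of -6.13, which is 1.43% of that percentile. A gene was called when its Benjamini-Hochberg adjusted p over all genes tested was under 0.05. The 8 arrays of each replicate number shared a slide, every condition kept its place on the 3 slides, and the Wnt3a-treated samples always lay in the second row, so Wnt3a and row cannot be told apart. Each of the 4 settings likewise kept its own column on every slide, so setting and column cannot be told apart. Precision is limited by how few arrays each condition has. In cell cultures measured in bulk, fewer cells expressing a collagen and less RNA per cell cannot be told apart.

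CTNNB1, the gene for β-catenin, was checked first. After control siRNA its log2 signal was 3.35, 3.39 and 3.52 on the 3 slides without Wnt3a and 3.39, 3.62 and 3.70 with Wnt3a, and after β-catenin siRNA it was 0.26, 0.36 and 0.52 without and 0.34, 0.53 and 0.79 with Wnt3a. Untransfected arrays gave 3.28, 3.28 and 3.58 without and 3.40, 3.33 and 3.50 with Wnt3a, and FZD8_CRD arrays gave 3.23, 3.40 and 4.12 without and 3.55, 4 and 3.91 with Wnt3a. The 6 arrays with β-catenin siRNA lay below the 18 others. The log2 fold change against control siRNA was -3.04 without Wnt3a and -3.02 with Wnt3a. The labelled line was also checked against markers. Of 20 hepatocyte markers, 18 were tested and 0 were below background on all arrays, with ALB giving the highest mean signal (8.01). Of 10 biliary and progenitor markers 8 were tested, with KRT19 highest (8.13), and of 12 endothelial and blood cell markers 8 were tested, with CD68 highest (1.14) and LYVE1 and MS4A1 not above background on any array.

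With Wnt3a alone, 5 of the 8 tested fibrillar collagens rose and 0 fell in untransfected cells, where 5.43% of all genes tested were called. After control siRNA 5 of 8 rose and 0 fell, against 2.02% of all genes. With FZD8_CRD present 4 of 8 rose and 0 fell, against 8.22%. After β-catenin siRNA limma called 0 of 8, against 0.0406% of all genes. There 1 of 8 had an unadjusted p under 0.05, beside 10.5% of all genes. The median log2 fold change of the 8 chains with Wnt3a was 0.78 in untransfected cells, 0.82 after control siRNA, 0.07 after β-catenin siRNA and 0.51 with FZD8_CRD, beside 0.02, 0.03, 0.03 and 0.02 for all genes. Without replicate number 1 or without number 2, which leaves 2 arrays per condition, limma called 0 of the 8 with Wnt3a in each of these settings, and at most 19 of all genes rose. The median of the 8 was then 0.81 and 0.73 in untransfected cells, 0.75 and 0.93 after control siRNA and 0.60 and 0.55 with FZD8_CRD. Without number 3 the calls in untransfected cells stayed and COL27A1 was also called, lower (-0.62, adjusted p = 0.0314). COL3A1 lost its call after control siRNA (0.87, adjusted p = 0.0915) and COL5A2 with FZD8_CRD (0.26, adjusted p = 0.19). After β-catenin siRNA limma called COL5A1 (0.93, adjusted p = 0.0331). Leaving out a replicate number gave up to 6254 genes called in untransfected cells and 5233 with FZD8_CRD, beside 1337 and 2026. With only the compared conditions in the fit, 0 rose in untransfected cells, 4 after control siRNA (COL3A1 lost its call) and 0 with FZD8_CRD. That fit called 2 of all genes in untransfected cells and 0 with FZD8_CRD, so the loss was not particular to the collagens. Scaled to spike-in probes, COL1A1 rose in untransfected cells, COL1A1 and COL1A2 after control siRNA, and COL1A1, COL1A2 and COL5A1 with FZD8_CRD. Counts of all genes called also varied over the alternatives that kept all replicates, spike-in scaling among them. They ran from 2 to 2799 in untransfected cells, 31 to 1308 after control siRNA, 1 to 317 after β-catenin siRNA and 0 to 3229 with FZD8_CRD. With the slide as a block more of all genes were called in each of these settings, and 6 of the 8 rose and 1 fell in untransfected cells (11.4% of all genes called), 5 rose after control siRNA (4.2%) and 4 rose with FZD8_CRD (13.1%). After β-catenin siRNA limma with the block called 0 of 8 (0.15%), where the fit without it had the 1 of 8 at an unadjusted p under 0.05 given above.

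Fibrillar collagens were also called between settings. Control siRNA against no transfection lowered 5 of 8 chains and raised 0 without Wnt3a (22.4% of all genes called), and lowered 2 and raised 0 with Wnt3a (8.87%). FZD8_CRD against none lowered 5 of 8 and raised 0 without Wnt3a (41.9%), and lowered 4 and raised 0 with Wnt3a (37.2%). β-catenin siRNA against control siRNA gave 0 calls by limma without Wnt3a, where 10.5% of all genes were called. There 2 of 8 had an unadjusted p under 0.05, beside 22.8% of all genes. With Wnt3a β-catenin siRNA lowered 4 and raised 0 (10.6%). Scaled to the 10 spike-in probes in place of the 75th percentile, the median of all genes moved to -0.36 for Wnt3a in untransfected cells, -0.33 and 0.12 for control siRNA against no transfection without and with Wnt3a, and -0.46 and -0.20 for FZD8_CRD against none. The members' median was then 0.39, -1.08, -0.27, -1.50 and -0.94 in the same order, and no called change of a member turned its direction under that scaling or any other setting tried. The spike-in probes were picked by name, and whether every sample received the same amount of spike-in is not known. The part of this in the shifted medians was not tested. With the slide as a block, control siRNA lowered 5 chains without Wnt3a (31.9% of all genes called) and 4 with it (14.9%), and β-catenin siRNA lowered 5 with Wnt3a (15.5%) and 0 without it (16.5%). FZD8_CRD with the block lowered 6 without Wnt3a (53.1%), and lowered 5 and raised 1 with it (48.3%), in comparisons where about as many genes were called as not. These comparisons share their control arrays, so their counts are not independent of each other.

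**Figure D1:**
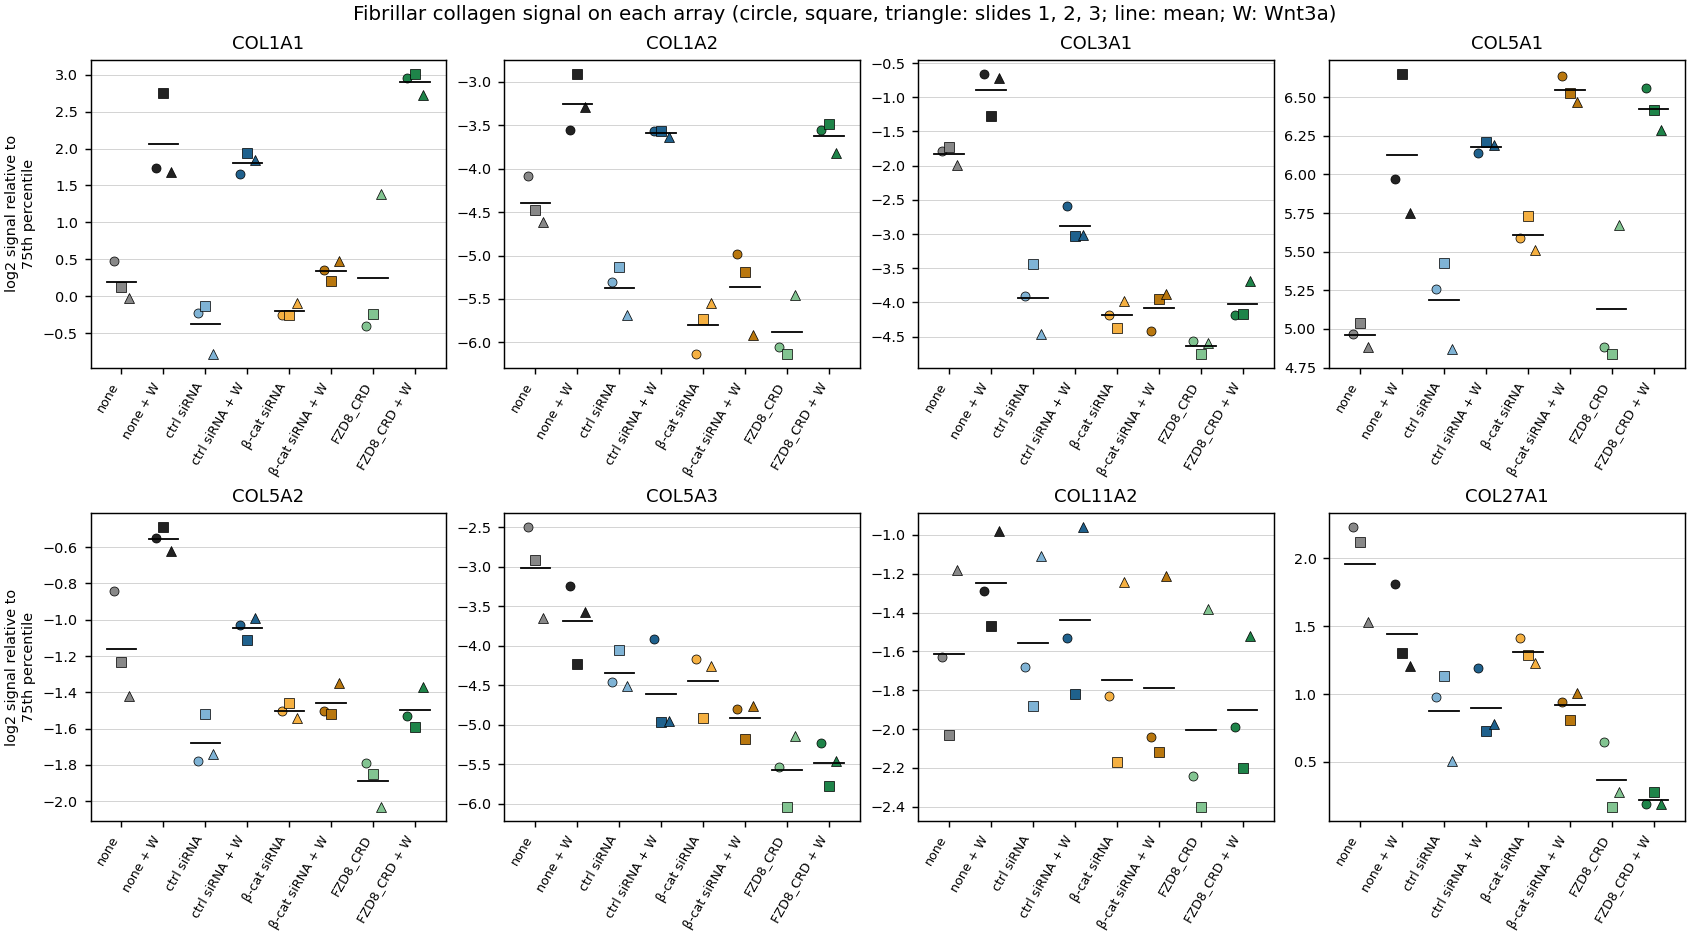
Log2 signal, scaled by the array's 75th percentile (vertical axis), of the 8 tested fibrillar collagens on each of the 24 arrays, by condition (horizontal axis; W is Wnt3a), with symbols for the 3 slides and lines for the means. COL1A1 reached 2.96, 3.01 and 2.73 with FZD8_CRD and Wnt3a, while COL3A1 was at -0.66, -1.28 and -0.72 in untransfected cells with Wnt3a and at or below -1.72 on every other array.

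COL1A1 encodes the alpha 1 chain, which makes up most of each type I collagen molecule. On untransfected arrays its log2 signal was 0.47, 0.13 and -0.02 without Wnt3a and 1.74, 2.76 and 1.68 with it. After control siRNA it was -0.23, -0.14 and -0.78 without Wnt3a and 1.65, 1.94 and 1.84 with it. In both settings every Wnt3a array was above every array without Wnt3a. After β-catenin siRNA the values were -0.26, -0.25 and -0.09 without Wnt3a and 0.35, 0.20 and 0.47 with it. With FZD8_CRD they were -0.40, -0.24 and 1.38 without Wnt3a and 2.96, 3.01 and 2.73 with it. The groups with and without Wnt3a did not overlap in either setting, but after β-catenin siRNA the Wnt3a arrays lay below every Wnt3a array of the other settings, and replicate 3 of FZD8_CRD alone stood apart from replicates 1 and 2.

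The log2 fold change of COL1A1 with Wnt3a was 1.87 in untransfected cells (standard error 0.33, adjusted p = 0.00396), 2.19 after control siRNA (adjusted p = 0.00285) and 2.66 with FZD8_CRD (adjusted p = 0.000194). Within slides 1, 2 and 3 the differences were 1.27, 2.63 and 1.71 in untransfected cells, 1.88, 2.08 and 2.62 after control siRNA, and 3.36, 3.25 and 1.35 with FZD8_CRD. After β-catenin siRNA the difference was 0.54 (95% interval -0.15 to 1.24, adjusted p = 0.625), and within slides it was 0.61, 0.45 and 0.56. With Wnt3a present, COL1A1 was lower after β-catenin siRNA than after control siRNA by a log2 fold change of -1.47 (adjusted p = 0.00575), on 3 of 3 slides, and without Wnt3a the same comparison gave 0.18 (adjusted p = 0.863). The call with Wnt3a was lost in the deposited table (-1.46, adjusted p = 0.0575) and without replicate number 1 or 2 (-1.56 and -1.33, adjusted p = 0.0899 and 0.146). With only the compared conditions in the fit, the COL1A1 calls for Wnt3a were lost in untransfected cells (adjusted p = 0.27) and with FZD8_CRD (adjusted p = 0.196). FZD8_CRD with Wnt3a against Wnt3a alone gave 0.84 (adjusted p = 0.0527), which passed with the slide as a block (adjusted p = 0.0498), in the normexp setting (0.86, adjusted p = 0.0367), with the filter on all arrays (adjusted p = 0.0492) and without replicate number 3 (0.74, adjusted p = 0.0277). That comparison also passed without replicate 2 of untransfected cells with Wnt3a (1.19, adjusted p = 0.00851) and without replicate 1, 2 or 3 of FZD8_CRD alone (0.84 each, adjusted p = 0.0370, 0.0469 and 0.00433). Ordered by mean, COL1A1 was highest with FZD8_CRD and Wnt3a (2.90), then in untransfected cells with Wnt3a (2.06) and after control siRNA with Wnt3a (1.81), each overlapping its neighbour, then after β-catenin siRNA with Wnt3a (0.34), which did not overlap the group above it, with FZD8_CRD alone (0.25), in untransfected cells (0.19), after β-catenin siRNA (-0.20) and after control siRNA (-0.38), where among these lower groups untransfected cells and β-catenin siRNA did not overlap.

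COL1A2 encodes the alpha 2 chain, the partner of the COL1A1 product in type I collagen. Its probe, spotted 10 times on each array, gave -4.08, -4.48 and -4.61 in untransfected cells without Wnt3a and -3.55, -2.91 and -3.29 with it. After control siRNA the log2 signal was -5.30, -5.13 and -5.68 without Wnt3a and -3.56, -3.56 and -3.64 with it. Groups with Wnt3a lay above groups without it in both settings. After β-catenin siRNA it was -6.13, -5.73 and -5.55 without Wnt3a and -4.98, -5.19 and -5.92 with it, and these groups overlapped. With FZD8_CRD it was -6.05, -6.13 and -5.45 without Wnt3a and -3.55, -3.49 and -3.82 with it, without overlap. The probe was well above background on 20 of 24 arrays, and on 1 of 3 with FZD8_CRD alone and 2 of 3 in each β-catenin siRNA group. It was at the floor on 2 arrays, replicate 1 of β-catenin siRNA and replicate 2 of FZD8_CRD, both without Wnt3a. Fold changes that involve those groups depend on the floor. The values for β-catenin siRNA with Wnt3a were all above the floor, but the lowest, -5.92, was close to it. By mean, untransfected cells with Wnt3a (-3.25) came first and did not overlap control siRNA with Wnt3a (-3.59), which overlapped FZD8_CRD with Wnt3a (-3.62). Untransfected cells (-4.39) overlapped no neighbour, and below them β-catenin siRNA with Wnt3a (-5.36), control siRNA (-5.37), β-catenin siRNA (-5.80) and FZD8_CRD alone (-5.88) each overlapped the next.

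The log2 fold change of COL1A2 with Wnt3a was 1.14 in untransfected cells (adjusted p = 0.0126), 1.78 after control siRNA (adjusted p = 0.00176), 2.26 with FZD8_CRD (adjusted p = 8.56e-05) and 0.44 after β-catenin siRNA (adjusted p = 0.583), each with a standard error of 0.25. Within slides 1, 2 and 3 the differences were 0.53, 1.57 and 1.32 in untransfected cells and 1.15, 0.54 and -0.37 after β-catenin siRNA. The call in untransfected cells was lost without replicate 2 of untransfected cells (1.10, adjusted p = 0.0558) or without replicate 2 of untransfected cells with Wnt3a (0.97, adjusted p = 0.110). β-catenin siRNA against control siRNA lowered COL1A2 with Wnt3a (-1.77, adjusted p = 7.96e-05), on 3 of 3 slides. Without Wnt3a, COL1A2 was lower after control siRNA than in untransfected cells (-0.98, adjusted p = 0.00775), a call lost without replicate 1 of untransfected cells (-0.83, adjusted p = 0.0541), without replicate number 1 or 2 (-0.86 and -1.14, adjusted p = 0.15 and 0.0647) and in the normexp setting (-0.30, adjusted p = 0.0576). It was also lower with FZD8_CRD (-1.49, adjusted p = 8.86e-05). The COL1A2 changes were smaller in the normexp setting, which differs from the main one in the signal column (median signal and background), the background method, an added offset of 50 and the absence of the floor, and these were not separated. It gave 0.51, 0.63 and 0.73 for Wnt3a in untransfected cells, after control siRNA and with FZD8_CRD, -0.61 for β-catenin siRNA with Wnt3a and -0.45 for FZD8_CRD without Wnt3a, all still called.

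COL3A1 encodes the chain of type III collagen, which forms thin fibrils together with type I. Its log2 signal was -1.78, -1.72 and -1.99 in untransfected cells without Wnt3a and -0.66, -1.28 and -0.72 with it. After control siRNA it was -3.91, -3.44 and -4.46 without Wnt3a and -2.59, -3.03 and -3.02 with it. The untransfected arrays, with or without Wnt3a, were all above the control siRNA arrays, and Wnt3a arrays were above the others within each setting. After β-catenin siRNA the values were -4.19, -4.38 and -3.98 without Wnt3a and -4.42, -3.95 and -3.88 with it, and these overlapped. With FZD8_CRD they were -4.57, -4.75 and -4.60 without Wnt3a and -4.19, -4.17 and -3.69 with it, without overlap. The order of the means was untransfected with Wnt3a (-0.89), untransfected (-1.83), control siRNA with Wnt3a (-2.88) and control siRNA (-3.94), none of them overlapping the group before it, then FZD8_CRD with Wnt3a (-4.02), β-catenin siRNA with Wnt3a (-4.08) and β-catenin siRNA (-4.18), each overlapping the group before it, and FZD8_CRD alone (-4.64), which lay below them all.

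Against untransfected cells its log2 fold change without Wnt3a was -2.11 with control siRNA (adjusted p = 2.66e-05) and -2.81 with FZD8_CRD (adjusted p = 1.15e-07), and with Wnt3a -1.99 (adjusted p = 0.000327) and -3.13 (adjusted p = 7.78e-08), each lower on 3 of 3 slides. In the deposited table the control siRNA values were -2.04 (adjusted p = 0.0691) and -1.99 (adjusted p = 0.119), which were not called. The control siRNA call with Wnt3a was also lost with only the compared conditions in the fit (adjusted p = 0.157) and without replicate number 1 (-2.02, adjusted p = 0.069). With Wnt3a it rose by 0.94 in untransfected cells (adjusted p = 0.0223, within slides 1.12, 0.44 and 1.27) and by 1.06 after control siRNA (adjusted p = 0.0216, within slides 1.32, 0.41 and 1.44). Neither was called in the deposited table (adjusted p = 0.525 and 0.677). Its values were 0.10 after β-catenin siRNA (adjusted p = 0.978) and 0.62 with FZD8_CRD (adjusted p = 0.108). The call in untransfected cells was lost without replicate 1 or 2 of untransfected cells (0.97 and 0.99, adjusted p = 0.0671 and 0.0585) or replicate 1 of untransfected cells with Wnt3a (0.83, adjusted p = 0.0677). The call after control siRNA was lost without replicate 1 or 3 of control siRNA (1.07 and 0.80, adjusted p = 0.0849 and 0.129) or without replicate 1, 2 or 3 of control siRNA with Wnt3a (0.91, 1.13 and 1.13, adjusted p = 0.0811, 0.0710 and 0.0597). That call was also lost in the normexp setting (0.54, adjusted p = 0.0614), with no filter (adjusted p = 0.0503), with spike-in scaling (1.12, adjusted p = 0.278) and with only the compared conditions in the fit (adjusted p = 0.0976). The call in untransfected cells was lost with the last 2 settings as well (0.56, adjusted p = 0.375, and 0.94, adjusted p = 0.385). β-catenin siRNA against control siRNA lowered COL3A1 with Wnt3a (-1.20, adjusted p = 0.00148, but -1.16 and 0.434 in the deposited table and -0.89 and 0.169 without replicate number 1) and gave -0.24 without it (adjusted p = 0.634). The COL3A1 changes were also smaller in the normexp setting, with its other signal column, added offset and no floor, which gave -0.63 for β-catenin siRNA with Wnt3a, -1.27 and -1.52 for control siRNA without and with Wnt3a, and -1.61 and -2.14 for FZD8_CRD, all still called.

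COL5A1 encodes the alpha 1 chain of type V collagen. Its tested probe, A_33_P3629678, gave a log2 signal of 4.97, 5.04 and 4.88 in untransfected cells without Wnt3a and 5.97, 6.65 and 5.75 with it. After control siRNA the signal was 5.26, 5.43 and 4.87 without Wnt3a and 6.14, 6.21 and 6.19 with it. Every Wnt3a array was above every array without Wnt3a. After β-catenin siRNA the signal was 5.59, 5.73 and 5.51 without Wnt3a and 6.64, 6.53 and 6.47 with it. With FZD8_CRD it was 4.88, 4.84 and 5.67 without Wnt3a and 6.56, 6.42 and 6.29 with it. There was again no overlap, and replicate 3 of FZD8_CRD alone was higher than replicates 1 and 2. For this probe the 4 Wnt3a groups held the top places by mean, from β-catenin siRNA (6.55) and FZD8_CRD (6.42), which overlapped, to control siRNA (6.18) and untransfected (6.12), which overlapped. Below them came β-catenin siRNA without Wnt3a (5.61), overlapping no neighbour, and control siRNA (5.19), FZD8_CRD (5.13) and untransfected cells (4.96), which overlapped. The second probe, A_23_P83818, ordered the settings differently, with control siRNA (2.82), untransfected cells (2.74), β-catenin siRNA (2.56) and FZD8_CRD (2.41) with Wnt3a, and control siRNA (1.87), β-catenin siRNA (1.77), untransfected cells (1.75) and FZD8_CRD (1.45) without it. Both probes placed the Wnt3a groups above the others.

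The log2 fold change of COL5A1 with Wnt3a was 1.16 in untransfected cells (adjusted p = 0.00299), 0.99 after control siRNA (adjusted p = 0.0148), 1.29 with FZD8_CRD (adjusted p = 0.00103) and 0.94 after β-catenin siRNA (adjusted p = 0.0902), each with a standard error of 0.20. Within slides 1, 2 and 3 the difference after β-catenin siRNA was 1.05, 0.81 and 0.96. That value passed the threshold without replicate 3 of FZD8_CRD alone (0.94, adjusted p = 0.0112) or without replicate 2 of untransfected cells with Wnt3a (0.94, adjusted p = 0.0209), arrays that are not part of the comparison but enter the shared estimate of spread. It also passed with only the compared conditions (adjusted p = 0.0464) and without replicate number 3 (0.93, adjusted p = 0.0331). The second probe, tested among 31058 probes, changed by 0.99, 0.94, 0.96 and 0.79 in untransfected cells, after control siRNA, with FZD8_CRD and after β-catenin siRNA, and all 4 changes were called, the last with an adjusted p of 0.0467. The call for the tested probe after control siRNA was lost without replicate 1 or 3 of control siRNA (1.03 and 0.84, adjusted p = 0.0583 and 0.0950) or replicate 2 or 3 of control siRNA with Wnt3a (0.98 and 0.99, adjusted p = 0.0732 and 0.0582). COL5A1 was not called in any comparison between settings. The lowest adjusted p among these was for β-catenin siRNA against control siRNA without Wnt3a (0.42, adjusted p = 0.210), where the second probe gave -0.11. With Wnt3a that comparison gave 0.37 (adjusted p = 0.315), which passed with only the compared conditions in the fit (adjusted p = 0.0156), while the second probe gave -0.26. For FZD8_CRD with Wnt3a against Wnt3a alone the value was 0.30 (adjusted p = 0.261), which passed without replicate 2 of untransfected cells with Wnt3a (0.56, adjusted p = 0.0211), while the second probe gave -0.33.

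COL5A2 encodes the alpha 2 chain that joins the COL5A1 product in the common form of type V collagen. Its log2 signal was -0.84, -1.23 and -1.42 in untransfected cells without Wnt3a and -0.55, -0.49 and -0.62 with it. After control siRNA it was -1.78, -1.52 and -1.74 without Wnt3a and -1.03, -1.11 and -0.99 with it. Wnt3a arrays lay above the others in both settings. After β-catenin siRNA the values were -1.50, -1.46 and -1.54 without Wnt3a and -1.50, -1.52 and -1.35 with it. With FZD8_CRD they were -1.79, -1.85 and -2.03 without Wnt3a and -1.53, -1.59 and -1.37 with it. The β-catenin siRNA groups overlapped and the FZD8_CRD groups did not. By mean, untransfected cells with Wnt3a (-0.55) stood clear of control siRNA with Wnt3a (-1.04), neighbours overlapped from there down to control siRNA alone (-1.68), and FZD8_CRD alone (-1.89) lay below all other arrays.

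COL5A2 rose with Wnt3a by a log2 fold change of 0.61 in untransfected cells (adjusted p = 0.00733), 0.64 after control siRNA (adjusted p = 0.00921) and 0.39 with FZD8_CRD (adjusted p = 0.0481), and its value after β-catenin siRNA was 0.05 (adjusted p = 0.981), each with a standard error of 0.12. It was higher on 3 of 3 slides in each of the called comparisons. The call with FZD8_CRD was at the threshold and was lost without any of 19 single arrays (0.32 to 0.44, adjusted p from 0.0520 to 0.186), without each replicate number, and with quantile normalization, the normexp setting, the deposited table, no filter, outlier spots kept, spike-in scaling or only the compared conditions. The call in untransfected cells was lost without replicate 2 of untransfected cells with Wnt3a (0.58, adjusted p = 0.0532). The call after control siRNA was lost without replicate 1 or 3 of control siRNA (0.59 and 0.61, adjusted p = 0.0693 and 0.0647) or replicate 3 of control siRNA with Wnt3a (0.61, adjusted p = 0.0505). With Wnt3a present, β-catenin siRNA lowered COL5A2 against control siRNA by -0.41 (adjusted p = 0.0306), a call lost without replicate 1 or 2 of β-catenin siRNA with Wnt3a or replicate 1, 2 or 3 of control siRNA with Wnt3a (-0.44 to -0.38, adjusted p from 0.0545 to 0.117). Against untransfected cells COL5A2 was lower with control siRNA (-0.52 without Wnt3a, adjusted p = 0.00383, and -0.49 with it, adjusted p = 0.0157) and with FZD8_CRD (-0.73, adjusted p = 6.79e-05, and -0.95, adjusted p = 7.46e-06). The control siRNA call with Wnt3a was lost without replicate 1 of untransfected cells with Wnt3a (-0.49, adjusted p = 0.0824) or replicate 2 of control siRNA with Wnt3a (-0.46, adjusted p = 0.0862). The control siRNA call without Wnt3a was lost without replicate number 1 (-0.31, adjusted p = 0.278), with spike-in scaling (-0.82, adjusted p = 0.1) and with only the compared conditions (adjusted p = 0.0929). The same settings ended the control siRNA call with Wnt3a (adjusted p = 0.177, 1 and 0.178), as did leaving out replicate number 2 (adjusted p = 0.215). The β-catenin siRNA call was lost with spike-in scaling (-0.47, adjusted p = 1) and without replicate number 1 or 2 (-0.38 and -0.41, adjusted p = 0.198 and 0.309).

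COL5A3 encodes the alpha 3 chain, a less common partner in type V collagen. Its log2 signal in untransfected cells was -2.50, -2.91 and -3.65 without Wnt3a and -3.25, -4.23 and -3.57 with it, and these groups overlapped. After control siRNA it was -4.46, -4.06 and -4.51 without Wnt3a and -3.92, -4.97 and -4.96 with it. After β-catenin siRNA it was -4.17, -4.92 and -4.26 without and -4.80, -5.18 and -4.76 with Wnt3a. The groups with and without Wnt3a overlapped in both settings. With FZD8_CRD the values were -5.54, -6.04 and -5.15 without and -5.23, -5.78 and -5.46 with Wnt3a, the lowest groups by mean. COL5A3 was not called for any of its responses to Wnt3a, whose values ran from -0.66 in untransfected cells (adjusted p = 0.269) to 0.08 with FZD8_CRD (adjusted p = 0.957). Against untransfected cells it was lower with FZD8_CRD by -2.56 without Wnt3a (adjusted p = 6.78e-06, within slides -3.05, -3.13 and -1.50) and by -1.81 with Wnt3a (adjusted p = 0.000308), and in the normexp setting by -1.10 and -0.68, both called. It was also lower after control siRNA without Wnt3a (-1.32, adjusted p = 0.00743), a call lost without replicate 1 of untransfected cells (-1.06, adjusted p = 0.0593) or without replicate number 1 (-1, adjusted p = 0.171). With Wnt3a that comparison gave -0.93 (adjusted p = 0.0912), which passed with the slide as a block (adjusted p = 0.0330), without replicate 2 of untransfected cells with Wnt3a (-1.21, adjusted p = 0.0263) or without replicate 1 of control siRNA with Wnt3a (-1.28, adjusted p = 0.0255).

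The promoters of COL5A1 and COL5A3 are shown because these chains of the same collagen type differed in their values, COL5A1 being called higher with Wnt3a and COL5A3 lower with control siRNA and FZD8_CRD. RefSeq promoter entries were found for 5 of the 10 genes, COL5A1, COL5A3, COL11A1, COL11A2 and COL27A1. The 250 bases before the annotated start of transcription are given 5′ to 3′ on the gene's strand in build GRCh38.p14, chr9:134641553-134641802 on the plus strand for COL5A1 and chr19:10010505-10010754 on the minus strand for COL5A3, and capitals mark matches on either strand to CTTTG, the core of TCF/LEF binding sites, to CCAAT or to TATAAA.
COL5A1: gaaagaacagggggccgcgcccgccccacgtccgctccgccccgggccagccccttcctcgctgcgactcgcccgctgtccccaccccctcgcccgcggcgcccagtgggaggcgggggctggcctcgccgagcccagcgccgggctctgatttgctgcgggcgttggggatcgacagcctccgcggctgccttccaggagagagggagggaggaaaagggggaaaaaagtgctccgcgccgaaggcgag
COL5A3: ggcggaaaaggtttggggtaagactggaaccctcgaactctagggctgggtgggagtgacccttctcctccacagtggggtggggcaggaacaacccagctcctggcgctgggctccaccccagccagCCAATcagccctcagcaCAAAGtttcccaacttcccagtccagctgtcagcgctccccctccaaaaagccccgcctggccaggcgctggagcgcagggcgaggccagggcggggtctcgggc
The COL5A1 window, the first of 2 entries for that gene, held 0 matches to the 3 motifs. The COL5A3 window held 1 match to CTTTG, on the other strand and starting 105 bases before the start of transcription, and 1 match to CCAAT, starting 122 bases before it, and these did not overlap. Among 35116 promoter windows of the same length, 42.1% held CTTTG and 32% held CCAAT on either strand, and 3763 of the 35116 held TATAAA. A match is a stretch of letters and not a measured binding site.

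COL11A2 and COL27A1 encode minor fibrillar chains, the first best known from cartilage as a partner in type XI collagen. COL27A1 gave a log2 signal of 2.23, 2.12 and 1.53 in untransfected cells without Wnt3a and 1.81, 1.30 and 1.21 with it. After control siRNA it was 0.98, 1.13 and 0.51 without and 1.19, 0.73 and 0.78 with Wnt3a. Untransfected arrays were all above the control siRNA arrays of the same Wnt3a treatment, and the groups with and without Wnt3a overlapped. After β-catenin siRNA it was 1.41, 1.29 and 1.23 without and 0.94, 0.81 and 1.01 with Wnt3a, without overlap. With FZD8_CRD it was 0.65, 0.17 and 0.28 without and 0.19, 0.28 and 0.19 with Wnt3a, the lowest groups by mean. COL27A1 was lower with FZD8_CRD by a log2 fold change of -1.59 without Wnt3a (adjusted p = 2.56e-06) and -1.22 with it (adjusted p = 5.73e-05), and lower after control siRNA by -1.08 without Wnt3a (adjusted p = 0.000554), each on 3 of 3 slides. With Wnt3a the control siRNA value was -0.54 (adjusted p = 0.0819), which passed with the slide as a block (adjusted p = 0.0205), without replicate 3 of untransfected cells (-0.54, adjusted p = 0.0452) or without replicate 1 of control siRNA with Wnt3a (-0.68, adjusted p = 0.0436).

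The log2 fold change of COL27A1 with Wnt3a was -0.52 in untransfected cells (adjusted p = 0.110), lower on 3 of 3 slides. That value passed with the slide as a block (adjusted p = 0.0317), without replicate number 3 (-0.62, adjusted p = 0.0314), without replicate 3 of untransfected cells (-0.74, adjusted p = 0.0168) and without replicate 1 of untransfected cells with Wnt3a (-0.71, adjusted p = 0.0456). Its values in the other settings were 0.03 after control siRNA, -0.39 after β-catenin siRNA and -0.15 with FZD8_CRD. For COL11A2 the tested probe, A_33_P3216448, had its highest signal on slide 3 in each of the 8 conditions, for instance -1.63, -2.03 and -1.18 in untransfected cells and -2.24, -2.40 and -1.38 with FZD8_CRD alone, and its signal over all arrays ran from -2.40 to -0.96. That probe was not called in any of the 13 comparisons, but with the slide as a block it passed in 4, being higher with Wnt3a in untransfected cells (0.36, adjusted p = 0.0248) and lower with β-catenin siRNA against control siRNA with Wnt3a (-0.35, adjusted p = 0.0191) and with FZD8_CRD without Wnt3a (-0.40, adjusted p = 0.00223) and with it (-0.66, adjusted p = 3.44e-05). The values with FZD8_CRD also passed without replicate number 3 (-0.50 and -0.72, adjusted p = 0.0317 and 0.00568) and with the mean of the gene's probes (-0.73 each, adjusted p = 0.000336 and 0.000448). The other probes of COL11A2, A_33_P3216442 and A_23_P42322, were both called lower with FZD8_CRD, by -0.98 and -0.82 without Wnt3a and by -0.75 and -0.78 with it. For Wnt3a in untransfected cells they gave 0.05 and 0.16, and for β-catenin siRNA with Wnt3a -0.05 and -0.02, none of them called. The fit by probe had no block, so the other probes were not tested in the fit where the tested probe passed.

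COL2A1, the chain of the type II collagen of cartilage, and COL11A1, its type XI companion, were at the floor on 24 of 24 arrays and well above background on 0, so that they were not tested and no fold change can be given for them. Neither gene was detectable with the probe that the array holds for it, and this does not show that the transcripts are absent.

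**Figure D2:**
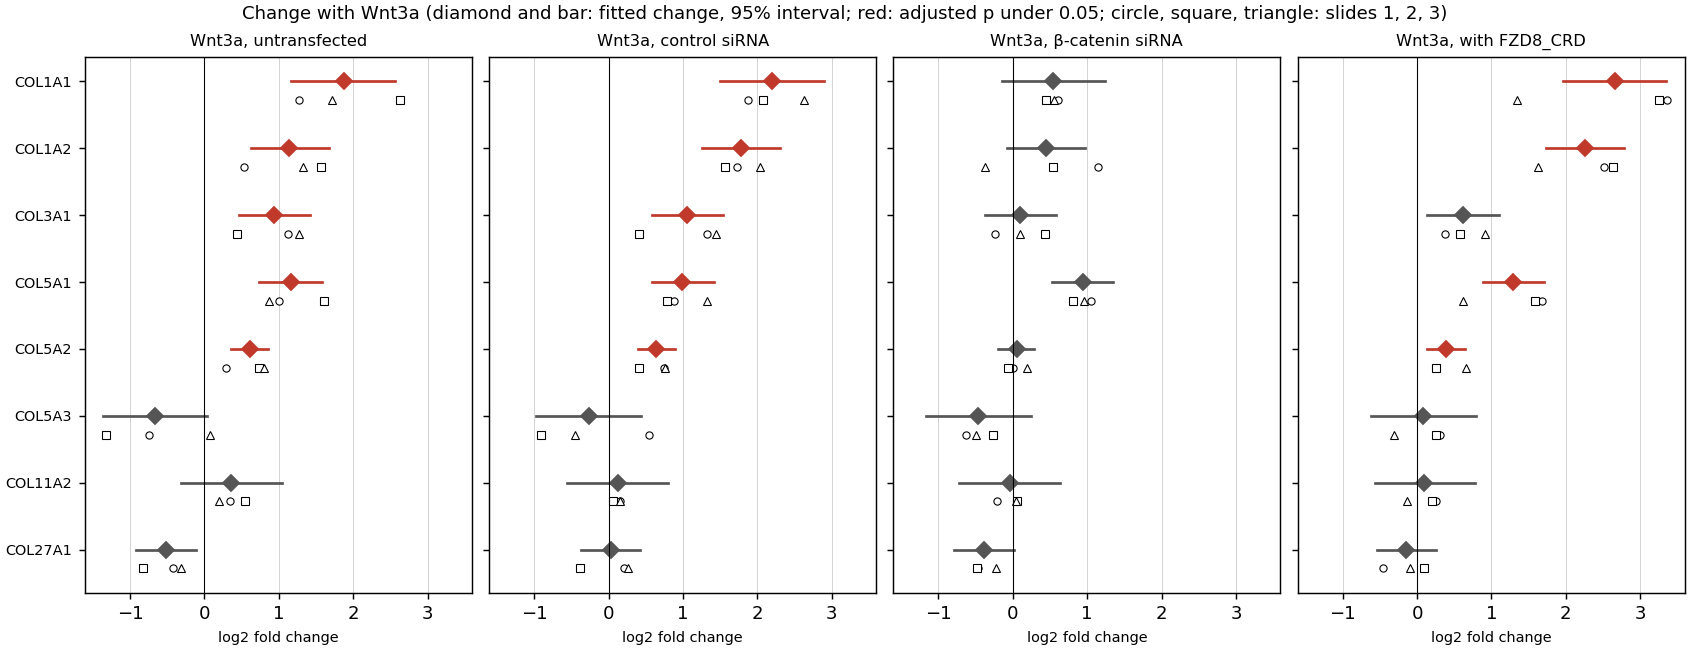
Log2 fold change with Wnt3a (horizontal axis) of the 8 tested fibrillar collagens in untransfected cells, after control siRNA, after β-catenin siRNA and with FZD8_CRD. Diamonds and bars are fitted changes with 95% intervals, red where the adjusted p was under 0.05, and open symbols are the differences within slides 1, 2 and 3. COL1A1 had 0.54 after β-catenin siRNA and 1.87, 2.19 and 2.66 in the other settings, and COL5A1 had 0.94 after β-catenin siRNA.

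Whether the response to Wnt3a differed between settings was tested as a difference of differences. For control siRNA minus no transfection limma called 0 of 8 chains (0% of all genes, with 1179 of 24641 genes and 0 chains at an unadjusted p under 0.05). For β-catenin siRNA minus control siRNA it called 0 of 8 (0.0162% of all genes), and 4 chains had an unadjusted p under 0.05, with 818 of all genes. Those 4 were COL1A1 (-1.65, 95% interval -2.63 to -0.67, adjusted p = 0.7), COL1A2 (-1.34, interval -2.08 to -0.60, adjusted p = 0.605), COL5A2 (-0.59, interval -0.95 to -0.24, adjusted p = 0.702) and COL3A1 (-0.96, interval -1.64 to -0.28, adjusted p = 1). The normexp setting gave -1.55, -0.38, -0.51 and -0.36 in the same order. The difference was negative on 3 of 3 slides for COL1A1, COL1A2 and COL5A2 and on 2 of 3 for COL3A1. For COL5A1 it was -0.06 (interval -0.65 to 0.53), with 0.17, 0.02 and -0.37 on slides 1, 2 and 3. Without replicate 3 of FZD8_CRD alone, the COL1A1 difference passed (-1.65, adjusted p = 0.0397), as it did with only the compared conditions in the fit (adjusted p = 0.022). For the response with minus without FZD8_CRD limma called 0 of 8 chains (0.073% of all genes), with 1 chain and 3111 of all genes at an unadjusted p under 0.05. That chain was COL1A2 (1.12, interval 0.38 to 1.86, adjusted p = 0.178), and COL1A1 had 0.79 (interval -0.19 to 1.77, adjusted p = 0.539). In the normexp setting the COL1A2 value was 0.22 (adjusted p = 0.679). Without replicate 3 of FZD8_CRD alone COL1A1 passed at 1.36 (adjusted p = 0.0136), as it did without replicate number 3 (1.36, adjusted p = 0.0243). COL1A2 is not given without that array or without replicate number 3, because replicates 1 and 2 of FZD8_CRD alone were not above background. With the slide as a block 0 of 8 chains passed in any of these 3 tests, where 0%, 0.0365% and 0.601% of all genes were called.

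**Figure D3:**
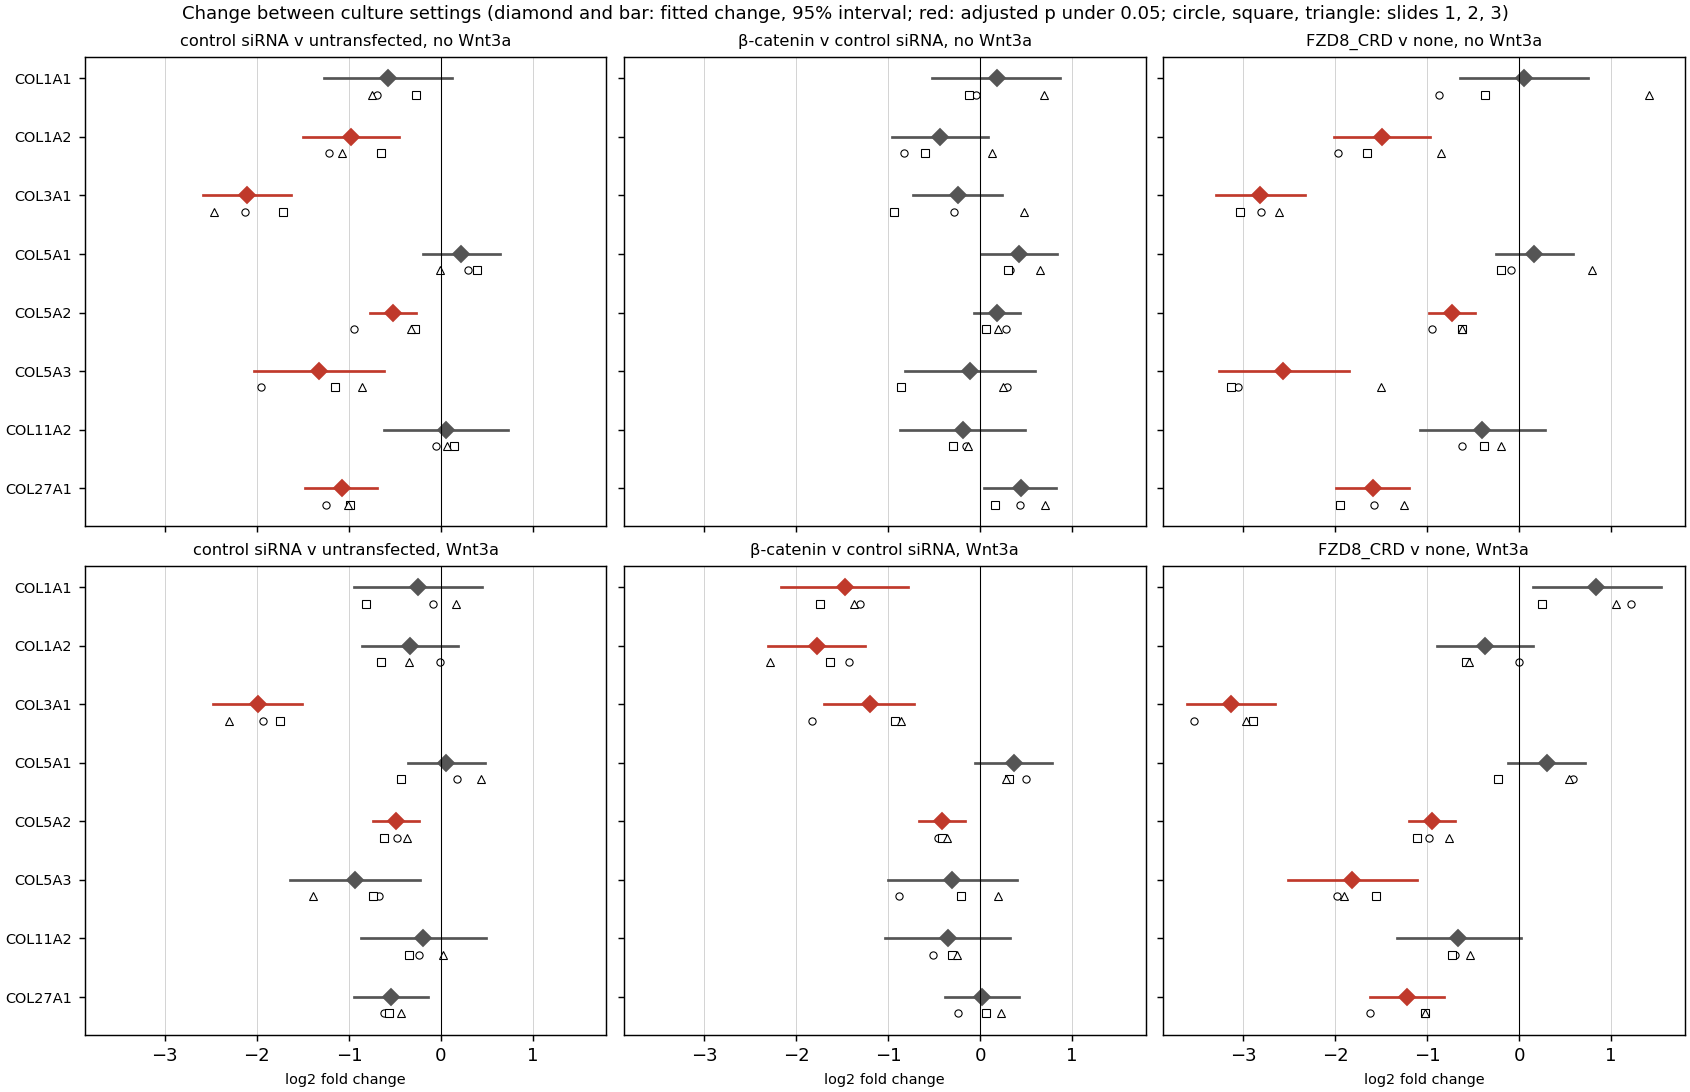
Log2 fold change (horizontal axis) of the 8 tested fibrillar collagens between settings, without Wnt3a in the upper row and with Wnt3a in the lower row. Diamonds and bars are fitted changes with 95% intervals, red where the adjusted p was under 0.05, and open symbols are the differences within slides 1, 2 and 3. COL3A1 had values of -2.81 and -3.13 for FZD8_CRD against none, and -2.11 and -1.99 for control siRNA against no transfection.

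Replicate 3 of FZD8_CRD alone had the highest COL1A1 (1.38) and COL5A1 (5.67) of its group, with 4.12 for CTNNB1, and its correlation with the other arrays of its group was 0.9864 and 0.988, against 0.9948 between those. Lower correlations within a condition were 0.984 for replicates 2 and 3 of untransfected cells with Wnt3a and 0.9858 for replicates 1 and 3 without it. Without replicate 3 of FZD8_CRD alone, FZD8_CRD against none gave log2 fold changes of -0.51 for COL1A1 (adjusted p = 0.101) and -0.10 for COL5A1 in the absence of Wnt3a, where all arrays gave 0.05 and 0.16. The response to Wnt3a with FZD8_CRD was 3.22 for COL1A1 and 1.56 for COL5A1 without that array, and each passed the test with and without it. For COL1A2 it was the only array of its group above background (-5.45, beside -6.05 and the floor of -6.13), so no fold change without it is given.

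Mesenchymal markers were examined beside these changes. The mean log2 signal of the 13 tested of 16 mesenchymal markers was -0.92, -0.72 and -0.91 in untransfected cells and -0.34, 0 and -0.40 with Wnt3a, -0.44, -0.42 and -0.55 after control siRNA and -0.10, -0.02 and -0.08 with Wnt3a. After β-catenin siRNA it was -1.13, -1.07 and -1.22 without and -0.79, -0.90 and -1.06 with Wnt3a, and with FZD8_CRD it was -0.67, -0.69 and -0.33 without and 0.06, 0.05 and -0.04 with Wnt3a. Wnt3a arrays had the higher means in every setting. The list was chosen with earlier results of these data known. It includes LRRC15 and FAP, which the paper already listed as raised by Wnt3a in these cells, so the means are not separate evidence. Of the 13, 5 rose and 1 fell with Wnt3a in untransfected cells (5.43% of all genes called), 2 rose and 1 fell after control siRNA (2.02%), 1 rose after β-catenin siRNA (0.0406%), and 5 rose and 1 fell with FZD8_CRD (8.22%). Among those that rose in untransfected cells were CNN1, a smooth muscle contractile gene (2.07, adjusted p = 0.0193), and TWIST1, a transcription factor of mesenchymal cells (0.77, adjusted p = 0.0297). CDH2 had the highest mean signal (3.66), and THY1 and TCF21 were not above background on any array. β-catenin siRNA against control siRNA lowered 6 of the 13 and raised 1 without Wnt3a (median -0.60, 10.5% of all genes called), and lowered 7 and raised 1 with it (median -0.62, 10.6%). In the same comparisons 7 and 6 of 15 interferon-stimulated genes fell and 0 rose, and ISG15 had the highest mean signal of that list (4.71). The part of these genes in the collagen results was not tested.

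Hepatocyte and proliferation genes moved with the setting. The mean log2 signal of the 18 tested hepatocyte markers was 3.31, 2.26 and 1.37 in untransfected cells without Wnt3a and 1.83, 0.58 and 1.98 with it. After control siRNA it was 0.37, 0.27 and 0.33 without and -0.06, -0.60 and -0.11 with Wnt3a, and with FZD8_CRD it was -0.27, -0.67 and 0.34 without and 0.05, 0.09 and 0.23 with Wnt3a. After β-catenin siRNA it was 1.28, 0.58 and 1.10 without and 0, 0.38 and 0.88 with Wnt3a. Of the 18, 16 fell and 0 rose with control siRNA against no transfection without Wnt3a, where 22.4% of all genes were called, and 16 fell and 1 rose with FZD8_CRD, where 41.9% were called. The 12 proliferation genes had means of 1.55, 1.84 and 2.08 in untransfected cells, 2.89, 2.85 and 2.93 after control siRNA and 3.42, 3.51 and 3.12 with FZD8_CRD, all without Wnt3a, and 12 of 12 rose in both comparisons. BIRC5 had the highest mean signal among them (5.07). With Wnt3a 11 of the 18 hepatocyte markers fell in each comparison, and 0 rose with control siRNA and 1 with FZD8_CRD. There 11 of the 12 proliferation genes rose in each, where 8.87% and 37.2% of all genes were called. For Wnt3a in untransfected cells the hepatocyte markers had a median of -0.90, and 0 were called. The part of these genes in the lower collagen signals was not tested. Of the 8 tested biliary and progenitor markers 2 rose and 1 fell with Wnt3a in untransfected cells (5.43% of all genes called), the 8 endothelial and blood cell markers had a median of -0.02, and of 15 interferon-stimulated genes 1 rose and 1 fell.

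**Figure D4:**
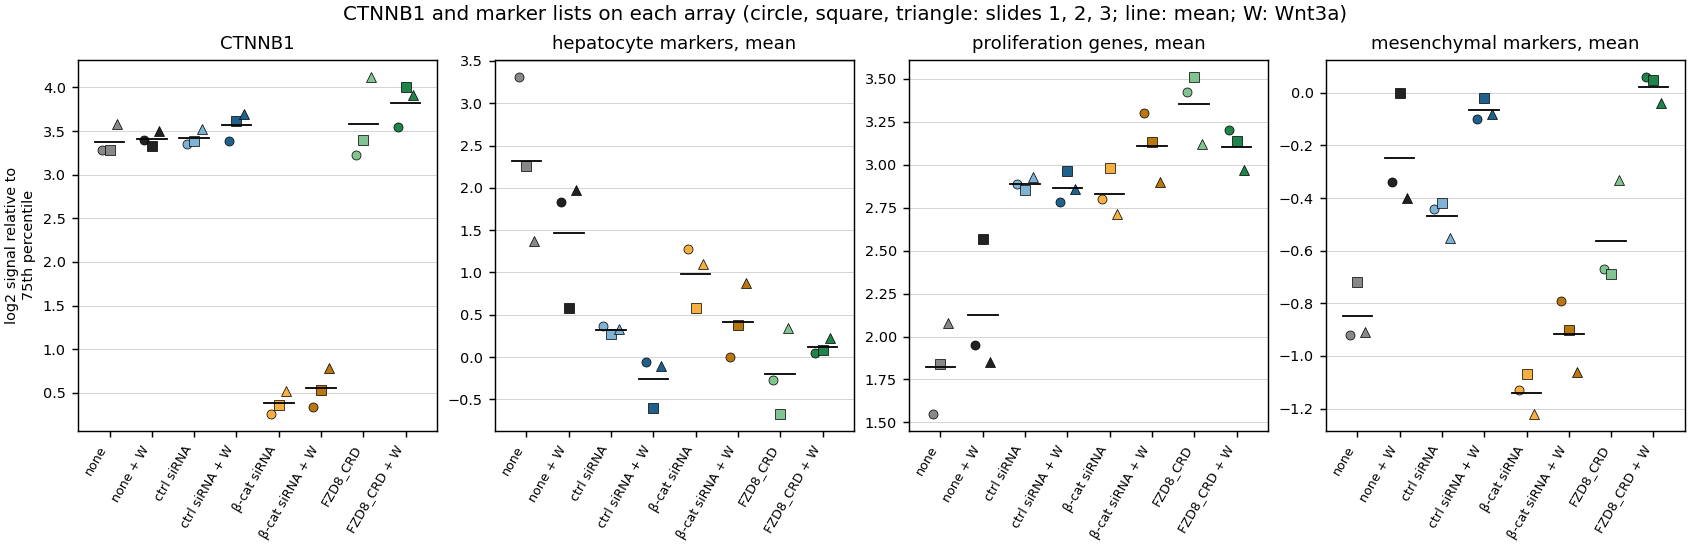
Log2 signal, scaled by the array's 75th percentile (vertical axis), of CTNNB1 and the mean over the tested hepatocyte, proliferation and mesenchymal genes, on each of the 24 arrays by condition (horizontal axis; W is Wnt3a), with symbols for the 3 slides and lines for the means. CTNNB1 lies between 0.26 and 0.79 on the 6 arrays with β-catenin siRNA, and the hepatocyte mean is 3.31, 2.26 and 1.37 in untransfected cells.

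Beyond the fibril-forming chains, 136 genes that make, trim, bind, sense, degrade or regulate collagen were listed, and 114 were tested. With Wnt3a 28 rose and 0 fell in untransfected cells (5.43% of all genes called), 19 rose and 1 fell after control siRNA (2.02%), 2 rose and 0 fell after β-catenin siRNA (0.0406%), and 33 rose and 9 fell with FZD8_CRD (8.22%). Their median log2 fold change was 0.26, 0.27, 0.11 and 0.18, beside 0.02, 0.03, 0.03 and 0.02 for all genes. β-catenin siRNA against control siRNA lowered 25 and raised 5 without Wnt3a, with a median of -0.18 beside -0.03 and 10.5% of all genes called, and lowered 35 and raised 2 with Wnt3a, with a median of -0.25 beside -0.02 and 10.6% of all genes called. The 2 that rose after β-catenin siRNA were PCOLCE2, an enhancer of procollagen trimming (0.59, adjusted p = 0.0351), and MRC2, a receptor that takes up collagen (1.30, adjusted p = 0.0444).

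Of 23 tested genes of procollagen modification and folding, 3 rose with Wnt3a in untransfected cells, where 5.43% of all genes were called, namely P4HA2, a prolyl hydroxylase subunit (0.76, adjusted p = 0.0131), SERPINH1, the collagen chaperone HSP47 (0.67, adjusted p = 0.0105), and PLOD2, a lysyl hydroxylase (0.40, adjusted p = 0.0173). FKBP10, a prolyl isomerase of the endoplasmic reticulum, rose after control siRNA (1.10, adjusted p = 0.0266, 2.02% of all genes called) and with FZD8_CRD (1.46, adjusted p = 0.00196, 8.22%) and was lower after β-catenin siRNA than after control siRNA with Wnt3a (-1.79, adjusted p = 7.2e-05, 10.6%). P4HB had the highest mean signal of that list (7.54). With the slide as a block 7 of the 23 rose and 0 fell with Wnt3a in untransfected cells (11.4% of all genes called). Of 10 tested genes of procollagen processing and cross-linking, 3 rose in untransfected cells, BMP1, the protease that removes the C-terminal propeptide (0.80, adjusted p = 1.47e-05), PCOLCE2 (0.51, adjusted p = 0.00689) and LOXL3, a lysyl oxidase (0.91, adjusted p = 0.0452). LOX, the best known of the cross-linking enzymes, was not above background on any array, nor were LOXL4 and ADAMTS14. PCOLCE2 had the highest mean signal (3.43).

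Among 17 tested proteins of the fibril surface and its surroundings, 7 rose with Wnt3a in untransfected cells, where 5.43% of all genes were called, including FBN1, the main protein of microfibrils (1.19, adjusted p = 0.00252), and SPARC, a collagen-binding matrix protein (0.86, adjusted p = 0.000222). After β-catenin siRNA 8 of the 17 were lower than after control siRNA without Wnt3a (median -0.68, 10.5% of all genes called) and 10 with it (median -0.77, 10.6%), the latter led by DPT (-2.20, adjusted p = 2.89e-06) and DCN (-1.81, adjusted p = 1.89e-06), a small proteoglycan that coats fibrils and had the highest mean signal of the list (4.44). Of 18 collagen receptors and turnover genes 5 rose in untransfected cells, MMP13 (1.97, adjusted p = 0.00733), a collagenase, and MMP2 (1.35, adjusted p = 8e-04), a gelatinase, among them, and TIMP2 had the highest mean signal (6.13). Of 21 other collagens 3 rose, COL13A1 (1.14, adjusted p = 0.0198), COL6A2 (0.90, adjusted p = 0.0191) and COL4A2 (0.64, adjusted p = 0.0157), of which COL4A2 also had the highest mean signal of that list (5.72). Of 25 regulators of collagen genes 7 rose and 0 fell, among them RUNX2 (0.97, adjusted p = 0.0335) and TGFB2 (0.93, adjusted p = 0.00832), and CEBPB had the highest mean signal (5.09). With the slide as a block 6 receptor and turnover genes, 5 other collagens and 9 regulators rose (11.4% of all genes called). Of 11 tested feedback targets of Wnt signalling 5 rose and 0 fell in untransfected cells, with a median of 0.37. After control siRNA 5 rose and 0 fell, with a median of 0.60 (2.02% of all genes called). After β-catenin siRNA 0 of the 11 were called, with a median of 0.05 (0.0406%). With FZD8_CRD 2 of these targets rose and 2 fell with Wnt3a, with a median of 0.01 (8.22% of all genes called), and against Wnt3a alone 5 fell and 0 rose, with a median of -0.72 (37.2%).

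The genes whose log2 signal over the 24 arrays was most like that of COL1A1, among 15961 genes with a symbol, included FBLIM1 (Pearson r 0.96, Spearman rho 0.85), PDLIM5 (0.92 and 0.85), CTHRC1 (0.92 and 0.79), EYA2 (0.92 and 0.85), KDM5B (0.92 and 0.83), CAMK1D (0.92 and 0.90) and ODAPH (0.91 and 0.77). CTHRC1 had a mean at the floor of -6.13 after β-catenin siRNA without Wnt3a, so its coefficients depend on the floor. The lowest coefficients were those of LIFR (-0.95 and -0.90), MACROD1 (-0.92 and -0.93) and MRPL12 (-0.92 and -0.91). Within the family the coefficients with COL1A1 were 0.84 and 0.85 for COL1A2, 0.69 and 0.73 for COL5A1, 0.46 and 0.48 for COL5A2, 0.31 and 0.45 for COL3A1, 0.15 and 0.21 for COL11A2, -0.16 and -0.11 for COL5A3 and -0.29 and -0.16 for COL27A1. These coefficients describe arrays that share conditions and slides, and no p was computed for them.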

How the data were processed

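RNA from 24 HepaRG cultures was hybridised to one-colour Agilent arrays, and per the file headers the spots were read with Agilent Feature Extraction 10.7.3.1, whose processed signal is a linear, background-subtracted intensity. The authors also deposited a table of log2 values scaled to the 75th percentile of each array and centred per probe, as far as its values show, and this was used only as an alternative. From the intensity of 61657 non-control spots, outlier spots were dropped, spots of a probe were averaged, values were divided by the 75th percentile of the array, set to at least the floor and put on the log2 scale. Of 50683 probes, 31058 were kept because the 3 arrays of 1 condition or more all read them as well above background. The brightest probe stood for its gene, which gave 24641 genes, 15995 of them with a RefSeq symbol, and 41 values were missing. Between 58.3% and 66.5% of spots per array were well above background.

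limma 3.58.1 in R 4.3.3 fitted the 8 conditions together (empirical Bayes with a trend), with two-sided tests of 13 comparisons and Benjamini-Hochberg adjustment over 24641 genes. The code was tested on simulated data. The members and lists were chosen with earlier results of these data known. Lists covered procollagen modification and folding, processing and cross-linking, fibril-associated proteins, collagen receptors and turnover, other collagens, collagen gene regulators, Wnt feedback targets, and hepatocyte, biliary, mesenchymal, endothelial and blood, proliferation and interferon genes. Named genes were the members, CTNNB1, up to 4 called genes per list with the largest change, each list's brightest gene, and the 8 highest and 3 lowest correlations with COL1A1. The alternatives were quantile normalization, normexp background correction (on median signal and background, offset 50), the deposited log2 table, no filter, a filter on all arrays, spike-in scaling, the mean of a gene's probes, outlier spots kept, a floor of 1 intensity unit, the slide as a block, only the conditions compared, thresholds given with the study, and leaving out each replicate number and each array. No array was left out of the values reported.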

Additional observations from a re-analysis of the deposited data

Results flagged for a closer look

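No fibrillar collagen had a difference between responses that passed the test, but 2 of the listed genes did. LUM, a small proteoglycan that binds collagen fibrils, differed in its response to Wnt3a with and without FZD8_CRD, with a difference of log2 fold changes of -1.42 (adjusted p = 0.0477, in the same direction on 3 of 3 slides). Its response was 1.04 in untransfected cells and -0.38 with FZD8_CRD. For that difference 0 of all genes were called without replicate 2 of FZD8_CRD with Wnt3a, so the LUM call was lost there. The lowest count in the settings that kept all replicates was also 0. RNF43, a feedback inhibitor of Wnt signalling, differed between β-catenin siRNA and control siRNA by -1.23 (adjusted p = 0.00188, 3 of 3 slides), with responses of -0.21 and 1.03. The count of all genes called for this difference fell to 0 when a replicate number was left out. That count was also 0 in another setting, so the RNF43 call was lost in both. Groups of 3 arrays were not searched for single outlying values. The causes of these differences were not tested.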

How the results depend on the processing

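Of 34 called results of fibrillar collagens, 0 changed direction under the 39 alternatives (38 for COL1A2, which the filter on all arrays leaves out) and 11 were called in each one run, while the number called depended on the processing as follows, and the cause was not tested except that leaving out arrays or conditions leaves fewer samples to estimate the spread. Scaled to spike-in probes, whose amount per sample is not known, the collagens called with Wnt3a went from 5 to 1 in untransfected cells and from 5 to 2 after control siRNA, those called for control siRNA with Wnt3a from 2 to 1, and the pathway genes called with Wnt3a from 28 to 4, 20 to 2, 2 to 0 and 42 to 7 in the order untransfected, control siRNA, β-catenin siRNA and FZD8_CRD, and from 30 to 1 and 37 to 13 for β-catenin siRNA against control siRNA without and with Wnt3a. With only the conditions compared in the fit, the collagens called with Wnt3a were 0 in untransfected cells, 1 after β-catenin siRNA and 0 with FZD8_CRD, 0 for control siRNA with Wnt3a and 1 for the difference in response with β-catenin siRNA, and the pathway genes were 0 in untransfected cells, 0 with FZD8_CRD and 47 for β-catenin siRNA without Wnt3a. Under the study's thresholds the collagens called were 1 with Wnt3a after β-catenin siRNA, 1 for control siRNA with Wnt3a, and 4 and 1 for the differences in response with β-catenin siRNA and FZD8_CRD, and 13 pathway genes were called after β-catenin siRNA. With the slide as a block 4 collagens were called for control siRNA with Wnt3a and 4 pathway genes with Wnt3a after β-catenin siRNA. The deposited table gave 1 collagen for control siRNA with Wnt3a, 2 for β-catenin siRNA with Wnt3a and 0 pathway genes after β-catenin siRNA. In that setting the pathway genes were also 0 with quantile normalization, 1 with normexp, 0 with no filter and 1 with the mean of probes, and with no filter 11 were called after control siRNA. Over these alternatives all genes called with Wnt3a ran from 2 to 2799, 31 to 1308, 1 to 317 and 0 to 3229 in the same order of settings. For control siRNA with Wnt3a they ran from 1 to 3669. For β-catenin siRNA they ran from 159 to 4270 without and from 387 to 3821 with Wnt3a. Leaving out a replicate number or 1 array gave 0 to 6, 0 to 5, 0 to 1 and 0 to 4 collagens called with Wnt3a in the 4 settings, 2 to 5 and 0 to 4 for control siRNA without and with Wnt3a, 0 and 1 to 4 for β-catenin siRNA, 5 to 6 and 4 to 6 for FZD8_CRD, and 0, 0 to 1 and 0 to 2 for the 3 differences in response. Pathway genes called then ran from 1 to 51, 0 to 30, 0 to 9 and 0 to 57 with Wnt3a, and from 7 to 40 and 10 to 44 for β-catenin siRNA without and with Wnt3a. Without single arrays, all genes called with Wnt3a in untransfected cells ran from 186 (without replicate 2 with Wnt3a) to 3200 (without replicate 3 with Wnt3a), beside 1337 with all arrays. Where a whole replicate number was left out, that count ran from 17 to 6254. The CTNNB1 log2 fold change stayed between -3.29 and -2.91 without Wnt3a and between -3.34 and -2.91 with it, and its highest adjusted p was 0.0497. Where a replicate number was left out, 2 arrays remained per condition and limma pooled their spread over conditions. Low signals over background limit COL1A2, COL5A3 and COL3A1, whose called changes were smaller in the normexp setting, where the signal column, background method, floor and an offset of 50 changed together and were not separated, and COL1A2 without replicate 3 of FZD8_CRD alone rested on a group with no array above background.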
